A study of Mus musculus with 3 samples.

Results

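Expression of 10 direct targets of the tumour suppressor p53 was examined in mouse embryonic stem (ES) cells whose H2A.Z, a histone variant of promoters, came from a transgene. The genes, chosen by name, were Cdkn1a, Mdm2, Ccng1, Trp53inp1, Bbc3, Bax, Sesn2, Phlda3, Zmat3 and Pmaip1. All 10 had a row among the 15311 genes of the deposited table, and all 10 passed the filter that kept 13829 genes for testing (a mean of at least 0.5 counts scaled to library size, CPM, over the 3 libraries). The K3R3 group had 1 RNA-seq library, and its cells carried H2A.Z with 3 C-terminal lysines (119, 120 and 123 in the labels) replaced by arginine, fused to yellow fluorescent protein (YFP). The wild-type (WT) group had 2 libraries, from cells with unmutated H2A.Z fused to YFP. In each group the lentiviral transgene was driven by a CMV promoter under a doxycycline-inducible system (1 µg/ml), YFP-positive cells were sorted, and a lentiviral hairpin, selected with blasticidin, was directed at the cells' own H2A.Z through the 3′ UTR of its transcript. Per the labels the transgenic lines were KH2 ES cells, the strain was V6.5 (129SvJaexC57BL/6), and irradiated embryonic fibroblasts served as feeders until the last passage. The labels do not say whether lines were clonal or whether the WT libraries came from separate cultures. P-values therefore measure only the spread between these libraries, which may be technical.

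p53 is a transcription factor that accumulates after DNA damage and other stresses and binds a pair of adjacent decamers near its target genes. Its targets stop the cell cycle, promote apoptosis, repair DNA and adjust metabolism. Mdm2, itself a target, ubiquitylates p53 and marks it for degradation, which closes a negative feedback loop. In mouse ES cells p53 also lowers Nanog expression, and in human cells H2A.Z has been found at the promoter of the Cdkn1a gene.

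The p53 binding sequences near the start sites of the 10 genes are shown because they are what the genes are known to share. RefSeq promoter windows (GRCm38.p6, 250 bases before to 50 after a start site) were at hand for 7 of the 10 genes, in 10 windows, and not for Trp53inp1, Zmat3 and Pmaip1. Each window was searched for the p53 response element, as 2 decamers of its consensus that adjoin or lie 1 base apart, with C at position 4 and G at position 7 of each decamer and at most 3 departures over 20 letters. That limit was set after the windows were seen. The consensus decamer is its own reverse complement, so the search covers both strands. A match was present for 4 of the 7 genes, against 3.27% of 27025 genes, or 2.82% of all 32851 windows. Each sequence is given 5′ to 3′ on the strand of its gene, with the 4-letter core of each decamer in capitals.
Cdkn1a: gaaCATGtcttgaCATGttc
Ccng1: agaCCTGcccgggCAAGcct
Bax: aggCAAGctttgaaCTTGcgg
Bbc3: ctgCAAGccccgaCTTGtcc
The Cdkn1a sequence (chr17:29090928-29090947, plus strand) is centred 41 bases before the upstream of its annotated starts and departs from the consensus at 1 letter. The Ccng1 sequence (chr11:40755462-40755481, minus strand) departs at 1 letter and is centred 185 bases before the start. At most 1 departure was found in 0.110% of all windows. The Bax sequence (chr7:45467079-45467099, minus strand) departs at 2 letters, with 1 base between its decamers. The Bbc3 sequence (chr7:16309486-16309505, plus strand) departs at 3 letters. No match was found in the windows of Mdm2, Sesn2 and Phlda3, which says only that these letters are not within those windows. The build named for the counts is mm9, so these GRCm38.p6 positions serve for the sequences alone.

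The libraries held 24718223 counts for K3R3, against 21614693 and 25426228 for WT replicates 1 and 2. The 10 genes took 0.185% of counts in K3R3, against 0.257% and 0.184% in the WT replicates. All 12 ES cell markers were tested. Their summed level was 4808 CPM in K3R3, against 7386 and 6320 CPM in WT replicates 1 and 2. In K3R3, 9 of the 12 were below both WT libraries, 2 between them and 1, Nanog, above both. Over all tested genes these shares were 34.2%, 31.9% and 33.9%. The median fitted log2 difference of the 12 was -0.41, and that of Nanog was 0.18. With edgeR 5 of them were called, all lower in K3R3, where 0.542% of all tested genes were called lower. DESeq2 called 1 of them. For 1 of the 5, Dnmt3l, K3R3 (73.6 CPM) was level with WT replicate 2 (73.8 CPM), and replicate 1 had 209 CPM. Of 25 fibroblast markers 22 were tested, with a summed level of 1336 CPM in K3R3, against 1738 and 1638 CPM. Most of that sum is Fn1 and Vim, and the other 20 summed to 307 CPM in K3R3, against 263 and 252 CPM, a sum added after the values were seen. Of the 22, 13 were above both WT libraries in K3R3 and 3 below both, against 33.9% and 34.2% of all tested genes. Their median fitted log2 difference was 0.42. Thy1 alone was called by edgeR, where 2.57% of all tested genes were. It was higher in K3R3, with 136 counts, against 39 and 30 counts in WT replicates 1 and 2. DESeq2 called 0 of the fibroblast markers. Postn, Lum and Fap had no row. The part of the cell mixture in the values below was not tested. Fewer cells of a type and less RNA per cell cannot be told apart in bulk RNA.

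All 10 p53 targets were higher in WT replicate 1 than in WT replicate 2, against 48.9% of all tested genes. All 10 were lower in K3R3 than in WT replicate 1, against 50.2% of all tested genes. Both counts rest on the level in WT replicate 1, so they are not separate observations. The K3R3 library lay between the WT libraries for Cdkn1a, Bax, Phlda3 and Bbc3, and at or below WT replicate 2 for the other 6 genes, of which Mdm2, Sesn2 and Pmaip1 lay just above it with totals implied by RPKM. No target was called different between K3R3 and WT.

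Levels can be compared between genes per length, as the authors' deposited RPKM. Ccng1 and Mdm2, the feedback targets, stood highest, at 95.5 and 89.8 RPKM in K3R3. In WT, Ccng1 averaged 112 ± 17.9 RPKM and Mdm2 107 ± 27.9 RPKM (SD, n = 2), a difference within their spread. Trp53inp1 followed at 55.7 RPKM in K3R3, against 68.1 ± 15.8 RPKM in WT. Next came Pmaip1, with 45.7 RPKM in K3R3 and 50.7 ± 11.9 RPKM in WT. Trp53inp1 was above Pmaip1 within each WT library too, at 79.3 against 59.1 RPKM in replicate 1 and 56.9 against 42.3 RPKM in replicate 2. Cdkn1a and Bax were close to each other, at 24.9 and 23.4 RPKM in K3R3, against 23.7 ± 8.40 and 26.0 ± 13.8 RPKM in WT. Zmat3, Sesn2 and Phlda3 stood between 9.49 and 12.8 RPKM in K3R3 and averaged between 10.9 and 15.6 RPKM in WT. Bbc3 was the lowest in every library, at 0.769 RPKM in K3R3, against 0.683 ± 0.590 RPKM in WT. By the deposited class codes all 10 were genes with active promoters, as were 11538 of the 15311 genes. None was bivalent, where 1970 of the 15311 genes were.

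**Figure D1:**
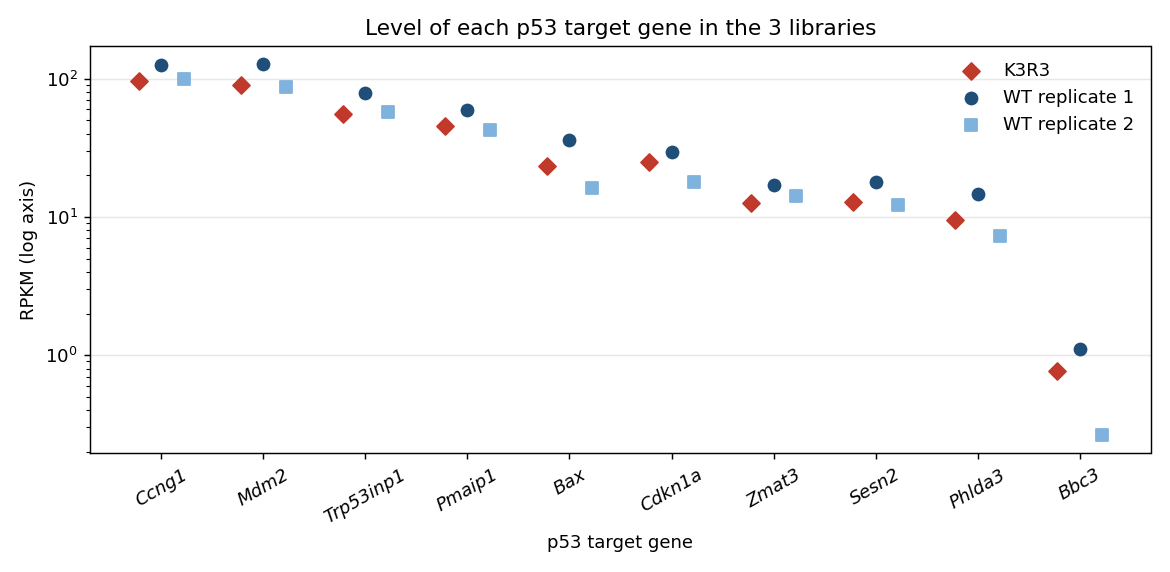
Level of each p53 target gene in K3R3, WT replicate 1 and WT replicate 2, in RPKM on a log axis, with 1 point per library and genes ordered by their WT mean. The levels run from 0.266 RPKM for Bbc3 in WT replicate 2 to 127 RPKM for Mdm2 in WT replicate 1, and WT replicate 1 is the highest library for every gene.

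The feedback targets came first by level. Mdm2 had 385 CPM in K3R3, against 596 and 404 CPM in WT replicates 1 and 2. Under the main (TMM) scaling K3R3 was below both WT libraries, by little for replicate 2 (ratio 0.951, exact 95% counting interval 0.925 to 0.978). By RPKM, K3R3 was just above replicate 2, at 89.8 against 87.2 RPKM. The fitted log2 difference was -0.38 (SE 0.18), with an adjusted p of 0.39 in the quasi-likelihood test of edgeR. Ccng1, which encodes cyclin G1, a partner of protein phosphatase 2A in the regulation of Mdm2, had 471 CPM in K3R3, against 676 and 531 CPM in the WT replicates. It too was below both, at -0.36 on the fitted log2 scale (SE 0.18; edgeR adjusted p = 0.44). Counting intervals here and below cover counting error between 2 libraries only, not the difference between conditions.

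Cdkn1a encodes p21, the inhibitor of cyclin-dependent kinases through which p53 arrests cells in G1. It had 68.2 CPM in K3R3, against 89.1 and 52.6 CPM in WT replicates 1 and 2. The K3R3 value lay 49.3% of the way up the log2 gap between the WT libraries. The fitted log2 difference was -0.05, with a 95% interval of -0.51 to 0.41, and it was 0.07 with library totals implied by the RPKM values. Without WT replicate 1 it was 0.37, and without replicate 2 it was -0.39. In the newer GENCODE annotation an antisense transcript overlaps an exon of Cdkn1a. Libraries were strand-specific per the labels, but how strand was used in counting is not given in the sources used here, so reads of the pair may be mixed.

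The apoptosis targets fell into 2 patterns under TMM scaling. Bax, the pore-forming protein of the mitochondrial membrane, had 28.7 CPM in K3R3, against 48.2 and 21.6 CPM in WT replicates 1 and 2. Phlda3, an inhibitor of the kinase AKT, had 19.7 CPM in K3R3, against 33.3 and 16.3 CPM. Bbc3, which encodes the BH3-only protein PUMA, had 56 counts (2.15 CPM) in K3R3, against 71 and 20 counts (3.38 and 0.806 CPM). In these genes K3R3 lay between WT libraries that were themselves far apart. Their fitted log2 differences were -0.28 for Bax, -0.33 for Phlda3 and 0.05 for Bbc3, with 95% intervals of -0.84 to 0.28, -0.94 to 0.28 and -1.14 to 1.25. The direction rested on the choice of WT library. Without WT replicate 1, Bax and Phlda3 stood at 0.41 and 0.28, and without replicate 2, Bbc3 stood at -0.64. Part of Bax is shared with an overlapping gene model on the same strand in GENCODE, so its counts are uncertain.

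Pmaip1 and Trp53inp1 followed the pattern of Mdm2 under TMM scaling. With totals implied by RPKM or plain column totals, Mdm2 and Pmaip1 lay between the WT libraries and Trp53inp1 stayed below both. Pmaip1, which encodes the BH3-only protein NOXA, had 171.7 CPM in K3R3, against 243.8 and 172.0 CPM in WT replicates 1 and 2. Under TMM scaling K3R3 and replicate 2 did not differ beyond counting error (ratio 0.998, exact 95% interval 0.957 to 1.04). By RPKM, K3R3 was the higher of these libraries, at 45.7 against 42.3 RPKM. The fitted log2 difference from WT was -0.28. Trp53inp1, a stress protein that aids p53-dependent apoptosis and autophagy, had 428 CPM in K3R3, against 669 and 473 CPM. Its fitted log2 difference was -0.41 (SE 0.18; edgeR adjusted p = 0.29), the smallest adjusted p among the 10 genes.

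The remaining targets act on metabolism and RNA. Sesn2, which encodes sestrin 2, an inhibitor of mTORC1 signalling, had 48.1 CPM in K3R3, against 73.9 and 49.7 CPM in the WT replicates. Under TMM scaling K3R3 and replicate 2 again did not differ beyond counting error (ratio 0.967, interval 0.894 to 1.05). By RPKM, K3R3 was the higher, at 12.8 against 12.2 RPKM. The fitted log2 difference from WT was -0.36. Zmat3, a zinc finger protein that binds RNA, had 138 CPM in K3R3, against 206 and 168 CPM. It had the smallest gap between the WT libraries and the lowest K3R3 value relative to them (fitted log2 -0.44, 95% interval -0.84 to -0.04; adjusted p = 0.36 by edgeR).

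**Figure D2:**
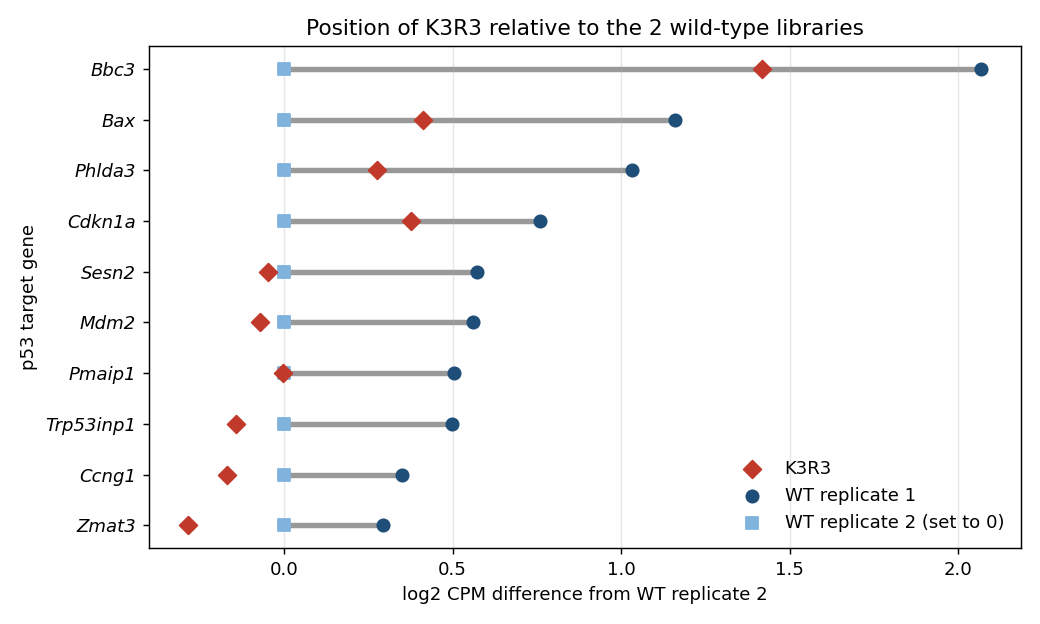
Position of K3R3 and WT replicate 1 relative to WT replicate 2 (set to 0) for each p53 target gene, as a difference of log2 CPM, with grey lines spanning the WT libraries. K3R3 lies within the span for Bbc3, Bax, Phlda3 and Cdkn1a and at or below WT replicate 2 for the other 6 genes (Mdm2, Sesn2 and Pmaip1 just above it with totals implied by RPKM), down to -0.28 for Zmat3.

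The K3R3 level was below both WT libraries for 6 of the 10 genes, between them for 4 and above both for 0. Over all tested genes the shares were 34.2% below, 31.9% between and 33.9% above. With totals implied by RPKM or with plain column totals, 3 genes were below both (Ccng1, Trp53inp1 and Zmat3) and 7 between, because Mdm2, Sesn2 and Pmaip1 then lay just above replicate 2. With the implied totals the median log2 CPM difference of all genes, K3R3 minus WT, was 0.12, compared with -0.0049 under TMM scaling. The placement of these 3 genes was therefore within the uncertainty of scaling.

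With edgeR at an adjusted p under 0.05, 0 of the 10 genes were called, where 2.57% of all tested genes were (2.02% higher and 0.542% lower in K3R3). Adjusted p ran between 0.29 and 1.00. At an unadjusted p under 0.05, 4 genes passed (Mdm2, Ccng1, Trp53inp1 and Zmat3, all lower in K3R3), against 11.2% of all tested genes. DESeq2 called 0 of the 10, with 0 at an unadjusted p under 0.05, and called 0.427% of all tested genes. The median fitted log2 difference of the 10 genes was -0.34, compared with -0.01 over all tested genes. It was -0.02 without WT replicate 1 and -0.63 without replicate 2, so WT replicate 1 set most of its size. In the authors' deposited table the unadjusted p of these genes ran between 0.127 and 1. The deposited ratio there is by its values WT over K3R3, and it was above 1 for 9 of the 10.

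K3R3, with 1 library, was taken to have the spread of WT, whose 2 libraries leave 1 residual degree of freedom. Standard errors followed the dispersion usual for a gene's level rather than its own WT gap, so they do not widen for genes such as Bax whose WT libraries stood far apart.

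**Figure D3:**
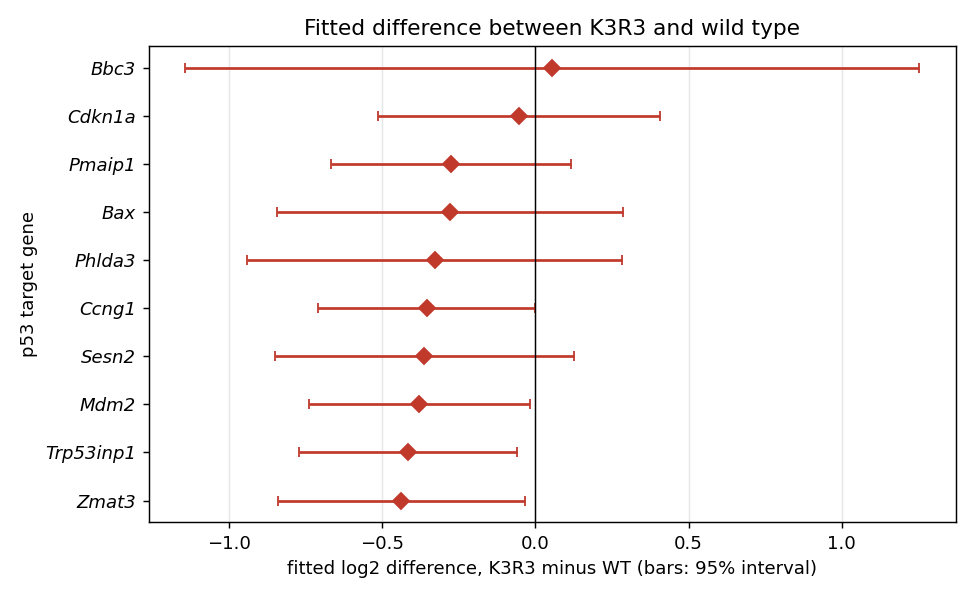
Fitted log2 difference of each p53 target gene, K3R3 minus WT, with 95% intervals from the fitted standard error (1 K3R3 and 2 WT libraries). Of the 10 values 9 are below 0, the lowest is -0.44 for Zmat3, and none passed adjustment over all tested genes.

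The gap between the WT libraries ran in the same direction in all 10 genes, as did the difference of K3R3 from WT replicate 1. All 10 were at least 1.2-fold higher in replicate 1, a size chosen after the values were seen. That size was reached by 24.7% of all tested genes, and by 17.3% of the 8521 genes that averaged 10 CPM or more, a level that Bbc3 does not reach. The count of 10 held with DESeq2 size factors, implied totals and plain column totals, with the smallest ratio between 1.21 and 1.23. The members were named with earlier results of these data known, so the count is a description.

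The size of the WT gap varied among the targets. It was 1.16 log2 units for Bax (ratio 2.23, exact 95% counting interval 2.01 to 2.49) and 1.03 for Phlda3 (ratio 2.05, interval 1.81 to 2.32). A gap at least as large as that of Bax or Phlda3 was seen in 2.49% and 3.23% of all tested genes. Bbc3 had the largest gap, at 2.07, with few counts behind it (ratio 4.19, interval 2.52 to 7.27). Cdkn1a followed Phlda3 at 0.76 (ratio 1.69, interval 1.58 to 1.82). Sesn2, Mdm2, Pmaip1 and Trp53inp1 were close together, with gaps between 0.50 and 0.57. Ccng1 and Zmat3 had the smallest gaps, 0.35 and 0.29, which 19.3% and 22.7% of all tested genes matched or exceeded. Every interval excluded a ratio of 1, but these intervals cover counting error only. The share of all tested genes whose interval does so was not computed. The median gap of all genes also varied with gene length. Among genes that averaged 10 CPM or more, the median WT gap was 0.17 up to 1000 bases, where Bax falls, 0.05 from 1000 to 2000 bases (Cdkn1a, Phlda3), -0.03 from 2000 to 3000 (Sesn2, Pmaip1), -0.07 from 3000 to 5000 (Mdm2, Ccng1) and -0.08 from 5000 to 8000 (Trp53inp1, Zmat3). Above 8000 bases, where none of the 10 genes falls, it was 0.04. Each of these 9 genes had a gap above the median of its length range. That follows from the smallest gap (0.29) and the highest median (0.17), so it is not a separate observation. The part of gene length or library preparation in the gap was not tested.

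Trp53, which encodes p53 itself, had 204 CPM in K3R3, against 278 and 196 CPM in WT replicates 1 and 2. K3R3 lay between the WT libraries, and the WT gap of 0.51 log2 units was of the size seen for Mdm2 and Pmaip1. The fitted difference of -0.21 was not called. Mdm4, the partner of Mdm2 that restrains p53 activity, had 244 CPM in K3R3, against 338 and 335 CPM, and stood at -0.47 on the fitted log2 scale (adjusted p = 0.24 by edgeR). Its WT libraries were nearly equal. Ppm1d, the phosphatase WIP1 that dephosphorylates p53 and is also its target, had 45.9 CPM in K3R3, against 47.1 and 43.3 CPM. Of 29 p53 regulators 27 were tested and 0 called, with a median of -0.07 between K3R3 and WT. WT replicate 1 was the higher in 16 of the 27, against 48.9% of all tested genes, with a median gap of 0.04. Usp7, the deubiquitylase of Mdm2 and p53, had 725 CPM in K3R3, against 973 and 940 CPM, and was not called. Setd7, a lysine methyltransferase, had 80.0 CPM in K3R3, against 58.2 and 68.8 CPM, and was not called. By an unadjusted p under 0.05, 2 of the 27 passed, Mdm4 and Usp7, where 11.2% of all tested genes did, and DESeq2 called 0.

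Of 52 further p53 targets, listed by function, 50 were tested. Igfbp3 alone of the 50 was called, where 2.57% of all tested genes were, and 7 had an unadjusted p under 0.05, where 11.2% of all tested genes did. These counts are near those shares. Igfbp3, a secreted binding protein of insulin-like growth factors, rose to 45.4 CPM in K3R3, against 20.5 and 22.6 CPM in the WT replicates (log2 1.08, SE 0.28; adjusted p = 0.010 by edgeR). DESeq2 did not call it (adjusted p = 0.065). Thbs1, which encodes the matrix protein thrombospondin 1, stood at 0.50 and was not called. The median of the 50 was -0.16 between K3R3 and WT, compared with -0.01 over all tested genes.

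Among these further targets WT replicate 1 was the higher in 36 of the 50, against 48.9% of all tested genes, with a median gap of 0.24 log2 units. At a size of 1.2-fold or more, chosen after the values were seen, replicate 1 was higher in 24 and lower in 5. Of all 13829 tested genes, 3413 were that much higher in replicate 1 and 3323 that much lower. Among arrest genes replicate 1 was the higher in 10 of 11 and among apoptosis genes in 11 of 12. For genes of metabolism, membranes and redox balance the count was 10 of 14. Among DNA repair genes it was the higher in 3 of 9, with a median gap of -0.15, and among secreted proteins in 2 of 4, with a median gap of 0.14. Whether the gap differs between these functions was not tested.

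Gtse1, which binds p53 in G2, had 77.0 CPM in K3R3, against 126 and 72.7 CPM in WT replicates 1 and 2. Perp, a membrane protein of p53-dependent apoptosis, had 72.4 CPM in K3R3, against 97.9 and 50.7 CPM. Gpx1, the antioxidant glutathione peroxidase, had 59.0 CPM in K3R3, against 95.5 and 60.9 CPM. K3R3 was nearer to replicate 2 than to replicate 1 for Gtse1 and Gpx1. For Perp it was about midway, with log2 differences of -0.43 from replicate 1 and 0.51 from replicate 2. Ak1, an adenylate kinase, had 14.2 CPM in K3R3, against 35.9 and 15.4 CPM, and Ptp4a3, a phosphatase, 14.4 CPM, against 29.2 and 11.8 CPM. The repair gene Xpc, whose product recognises DNA damage, ran the other way between the WT libraries, with 29.1 CPM in K3R3, against 23.1 and 29.6 CPM. Rrm2b, the p53-inducible ribonucleotide reductase subunit, had 26.9 CPM in K3R3, against 33.0 and 43.6 CPM.

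Among genes that averaged 5 CPM or more, the extremes of these lists between K3R3 and WT were as follows. Plk3 (0.68) and Btg2 (0.22) had the highest fitted log2 differences of the arrest genes, and Fbxw7 (-0.53), Gtse1 (-0.37) and Psrc1 (-0.37) the lowest. Psrc1 had 75.2 CPM in K3R3, against 116 and 78.2 CPM, and stood at -0.056 without WT replicate 1. Among apoptosis genes Ei24 (-0.50) and Rps27l (-0.42) stood lowest, and among metabolism genes Ephx1 stood highest (0.20). None of these was called.

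**Figure D4:**
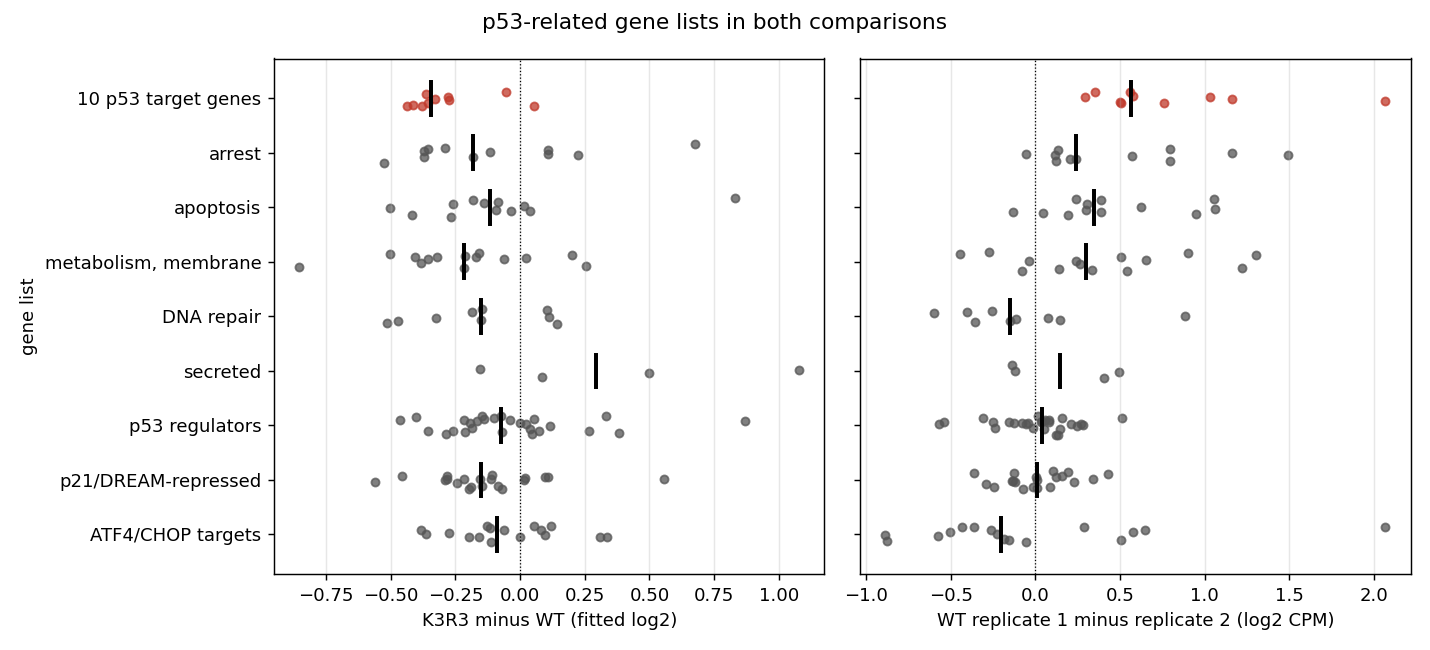
The 10 p53 target genes (red) and other lists (grey), 1 point per tested gene, black bars at list medians. The left panel shows the fitted log2 difference K3R3 minus WT and the right panel the log2 CPM difference of WT replicate 1 minus replicate 2; the 10 genes have medians of -0.34 and 0.57, the repair genes -0.15 and -0.15.

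Genes repressed when p21 acts through the DREAM complex, mostly of mitosis, gave 0 calls among 20. Their median was -0.15 between K3R3 and WT, and 0.01 between the WT libraries, with replicate 1 the higher in 11 of 20, against 48.9% of all tested genes. Birc5, which encodes survivin, had 133 CPM in K3R3, against 91.0 and 90.4 CPM (log2 0.56; adjusted p = 0.16 by edgeR, and 0.045 with implied totals). Mybl2, a cell cycle transcription factor, had 211 CPM in K3R3, against 357 and 265 CPM (log2 -0.56; edgeR adjusted p = 0.10). Ccnb2, a mitotic cyclin, stood at -0.46 (edgeR adjusted p = 0.32). At an unadjusted p under 0.05 these 3 genes passed, where 11.2% of all tested genes did, and DESeq2 called 0 of the 20.

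Sesn2, Bbc3 and Pmaip1 are also targets of the stress factors ATF4 and CHOP. Of 16 such targets, these 3 included, 0 were called and 0 had an unadjusted p under 0.05, and DESeq2 called 0. WT replicate 1 was the higher in 5 of the 16, Sesn2, Bbc3 and Pmaip1 among them, against 48.9% of all tested genes. The median gap of the 16 was -0.21, and that of the 10 p53 targets, which share these 3 genes, was 0.57. The part of ATF4 and CHOP in the gap was not tested. Atf3, a stress-induced transcription factor, had 64.5 CPM in K3R3, against 44.7 and 57.4 CPM (log2 0.34, and between 0.17 and 0.53 with 1 WT library left out). Psat1, an enzyme of serine synthesis, had 617 CPM in K3R3, against 423 and 571 CPM (log2 0.31, and between 0.11 and 0.54 with 1 left out). Ddit3, which encodes CHOP, had 8.57 CPM in K3R3, against 10.5 and 11.9 CPM (log2 -0.38).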

How the data were processed

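The table deposited by the authors holds whole-number read counts, for which HTSeq 0.5.4p1 and mm9 are named, per the submitters' processing notes; no library has a count below 1. Its RPKM columns were also computed by the authors. So were a ratio (WT over K3R3 by its values, within a relative deviation of 1.63e-08), a log2 of it and a p-value, with DESeq 1.10.1 named per the submitters' processing notes. Sources used here do not give the aligner, annotation or strand setting.

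Counts of 1 K3R3 and 2 WT libraries were fitted over all genes with edgeR 4.0.16 in R 4.3.3. The fit used TMM scaling, a mean CPM of at least 0.5, the quasi-likelihood test, Benjamini-Hochberg at 0.05 and no covariate. It was tested on simulated counts that had the same dispersion for every gene. That simulation cannot show how the fit behaves for genes whose WT libraries stood far apart. Prior degrees of freedom were infinite. CPM are TMM-scaled. Intervals of ratios are exact conditional binomial ones. Alternatives were DESeq2 1.42.0, other scalings and filters, a likelihood ratio test and leaving out each WT library. The rule for named genes took the 10 targets, Trp53, Mdm4, Ppm1d, and from other lists those called and the 3 highest and 3 lowest fitted values at a mean of at least 5 CPM; part of these are printed. Members and lists were chosen with earlier results of these data known.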

Additional observations from a re-analysis of the deposited data

How the results depend on the processing

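Under 6 alternative settings with a test, the count of p53 targets called stayed at 0, and WT replicate 1 stayed the higher in 10 of 10 under the 3 other scalings, which were set against the WT gap after the data were seen. With totals implied by RPKM, 3 targets lay below both WT libraries and 7 between (6 and 4 with TMM), 3 ES cell markers (5 with TMM), 2 fibroblast markers (1) and 1 gene repressed through p21 and DREAM (0) were called, and Cdkn1a and Perp turned to 0.073 and 0.091. DESeq2 called 59 genes in all (355 by edgeR), 1 ES cell marker, 0 fibroblast markers and 0 of the other p53 targets, and the likelihood ratio test called 3 ES cell markers. The scaling itself moves the median of all genes by over 0.1; the cause of the other changes was not tested.

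Leaving out a WT library leaves no residual degrees of freedom, so values without a test are given. Across both, log2 differences ran between -0.39 and 0.37 for Cdkn1a, -0.64 and 1.37 for Bbc3, -0.75 and 0.41 for Bax, -0.76 and 0.28 for Phlda3, -0.71 and 0.083 for Gtse1, -0.43 and 0.51 for Perp, -1.01 and 0.29 for Ptp4a3, -0.031 and 0.47 for Ephx1, -0.024 and 0.33 for Xpc, -0.44 and 0.063 for Trp53, and -0.037 and 0.085 for Ppm1d. No paired analysis was possible because K3R3 has 1 library and its label carries no replicate number. K3R3 has no replicate, and genes with few counts such as Bbc3 have wide intervals.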

Other observations

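Among 6 tested inhibitors of cyclin-dependent kinases, Cdkn1c was called, at 51.2 CPM in K3R3, against 19.8 and 21.1 CPM in WT replicates 1 and 2 (log2 1.32; adjusted p = 0.00045 by edgeR), whereas Cdkn1a, of the same family, stood at -0.05. Cdkn2a, whose product p19ARF restrains Mdm2, had 12 counts in K3R3, against 7 and 5 counts in WT, and was below the level tested. Among 14 tested members of the BCL2 family, Bcl2, which opposes Bax and Bbc3, was called. It rose to 6.45 CPM in K3R3, against 1.90 and 2.30 CPM in WT (log2 1.61; adjusted p = 0.034 by edgeR, and 0.55 by DESeq2). Each of these lists had 1 gene called by edgeR, where 2.57% of all tested genes were. By the deposited class codes Cdkn1c and Bcl2 were bivalent, unlike the 10 p53 targets. Igfbp3, also called, was active, and the bivalent further p53 targets Perp, Plk2 and Dram1 were not called. Whether the calls go with the class was not tested.

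The WT libraries also differed in cell type markers outside the p53 lists, named here after their values were seen. Among 22 fibroblast markers replicate 1 was the higher in 12, with 9 at least 1.2-fold higher, 9 at least 1.2-fold lower and a median gap of 0.04 log2 units. Among 12 ES cell markers it was the higher in 7, with a median gap of 0.15. Dnmt3l had 73.6 CPM in K3R3, against 209 and 73.8 CPM in WT replicates 1 and 2. Tagln had 19.5 CPM in K3R3, against 36.7 and 9.18 CPM, and Acta2, the smooth muscle actin, had 14.8 CPM, against 27.3 and 8.74 CPM. The collagen gene Col6a1, like 9 other fibroblast markers, ran the other way between the WT libraries, with 28.5 CPM in K3R3, against 10.2 and 22.2 CPM.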
